A study of Rattus norvegicus with 12 samples.

Results

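The data are 6 one-colour expression arrays of pituitaries from male fetal Wistar rats, taken on gestational day 18 in a study of maternal exposure to TCDD. They were chosen by their labels, as the arrays titled GD18 and M, and they are 6 of the 12 arrays of the series. Of these, 3 are labelled male control and 3 male TCDD, and all 6 share strain, age, sex and tissue. The other 6 arrays are the same design in females and enter here as a second set of values. The series title asks how dioxin given to the mother affects pituitary mRNAs. The labels give no dose, no day of dosing and no vehicle. They also do not say which fetuses shared a litter or whether an array holds 1 gland or a pool, so the p-values measure only the spread between these samples.

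TCDD, the most studied dioxin, acts through the aryl hydrocarbon receptor (AhR). The bound receptor enters the nucleus, pairs with Arnt and activates genes that carry its binding motif, among them Cyp1a1, Cyp1b1, Nqo1 and Ahrr, the last of which encodes a repressor of the same receptor. The anterior pituitary of the late fetus is where growth hormone, prolactin, thyrotropin, the gonadotropins and ACTH are made, each by its own cell type.

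Values are log2 signals relative to the 75th percentile of the same array, so that a probe at 0 is as bright as that percentile. Levels of different probes are not compared. Between 75.1% and 77.6% of the spots of the male arrays lay well above background and none was saturated. The tested set held 19337 genes. An X-linked gene that is known to escape X inactivation, Eif2s3x in the files, gave levels on its brighter probe of 1.85 to 1.92 on the 6 male arrays and 2.51 to 2.60 on the 6 female arrays. These ranges do not overlap, so the labelled sexes separate. The Sry probe lay between -5.69 and -5.14 in males and between -5.75 and -5.22 in females and did not separate them.

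The male arrays also differ in a way that their labels do not give. Genes of sensory ganglion neurons, which convey touch and pain and lie beside the pituitary in the trigeminal ganglion, were high on male control 2, male TCDD 1 and male TCDD 2. The marker Avil stood at -3.48, 0.34 and -3.68 in controls 1 to 3 and at 1.63, 1.03 and -3.32 in TCDD 1 to 3. These 3 arrays are called marked below, and male control 1, male control 3 and male TCDD 3 unmarked. As 2 of the 3 exposed arrays but 1 of the 3 controls were marked, the main results are followed by the difference within the unmarked arrays (TCDD 3 minus the mean of controls 1 and 3) and within the marked arrays (the mean of TCDD 1 and 2 minus control 2). These within values have no test. Over all genes the array of control 2 correlated at 0.989 with TCDD 2, and that of control 3 at 0.99 with TCDD 3, against 0.983 between the controls 2 and 3.

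Male TCDD 1 stood apart further. It was the lowest male array by more than 1 log2 unit for 519 genes, whereas each other male array was the lowest for 11 to 53 genes. It shared its slide with the 3 male controls, while male TCDD 2 and 3 lay on a slide with female controls.

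The promoters of AhR targets among the named genes are shown first. The reason is that the exposed and control arrays separated most widely on Ahrr and Cyp1a1, which are such targets. Cyp1a1 was not matched to a promoter, so none is shown for it. The arrays separated far less on Cyp1b1, another such target. Each line holds the 250 bases before the annotated start, from RefSeq on the GRCr8 build, read on the gene's strand. Capitals mark the core AhR motif GCGTG, searched on both strands, so that CACGC is the motif on the opposite strand. The intervals are chr1:30821969-30822218 for Ahrr, chr6:21094315-21094564 for Cyp1b1, chr19:52220268-52220517 for Nqo1 and chr11:46711739-46711988 for Cldn14, which is included as the gene of next smallest p.

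Ahrr: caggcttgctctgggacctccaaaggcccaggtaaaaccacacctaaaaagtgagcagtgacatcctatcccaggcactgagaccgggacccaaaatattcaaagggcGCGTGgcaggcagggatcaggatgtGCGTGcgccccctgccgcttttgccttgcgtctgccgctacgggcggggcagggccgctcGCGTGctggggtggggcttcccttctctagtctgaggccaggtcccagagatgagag
Cyp1b1: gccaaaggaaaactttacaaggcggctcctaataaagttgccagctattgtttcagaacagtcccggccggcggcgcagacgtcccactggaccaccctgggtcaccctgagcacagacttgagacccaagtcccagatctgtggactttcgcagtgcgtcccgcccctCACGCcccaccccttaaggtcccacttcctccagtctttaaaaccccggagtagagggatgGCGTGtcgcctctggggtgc
Nqo1: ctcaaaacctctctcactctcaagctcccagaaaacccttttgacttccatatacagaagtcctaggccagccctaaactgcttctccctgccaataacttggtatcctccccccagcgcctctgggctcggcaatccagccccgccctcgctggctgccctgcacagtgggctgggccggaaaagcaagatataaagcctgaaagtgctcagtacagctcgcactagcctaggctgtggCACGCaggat
Cldn14: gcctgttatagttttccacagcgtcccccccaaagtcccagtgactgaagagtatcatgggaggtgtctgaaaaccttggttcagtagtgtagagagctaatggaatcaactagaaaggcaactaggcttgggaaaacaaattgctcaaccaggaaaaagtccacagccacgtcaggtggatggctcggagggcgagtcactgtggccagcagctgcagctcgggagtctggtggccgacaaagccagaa

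Ahrr held 3 matches, which begin 142, 117 and 57 bases before the start. Cyp1b1 held 2 matches, 81 and 20 bases before it, Nqo1 held 1 at 10 bases before it, and Cldn14 held 0. Of the other genes described below, Rxrg and Sstr2 held 1 match each, at 15 and 56 bases, and Aldh1a1, Slc27a2, Myh7, Myh6, Inmt and Dapl1 held 0. Over the 33469 promoters of the table, 25.9% held the motif in a window of this length. A match is a description of the letters, and binding was not measured. Of the 102 named genes, 81 were matched to a promoter.

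In male pituitaries 2 genes rose with TCDD at an adjusted p below 0.05, and both are known AhR targets. Ahrr, the AhR repressor, was 63-fold higher in exposed males, and Cyp1a1, the cytochrome P450 that oxidises aromatic hydrocarbons, was at least 27.1-fold higher. No gene fell. The 2 calls are 0.0103% of the 19337 genes tested, by limma with Benjamini-Hochberg adjustment. At an unadjusted p below 0.05, 1230 genes were higher (6.36%) and 571 lower (2.95%), which is 9.31% in all. Within the slide that holds the controls, where TCDD 1 is the only exposed male, the difference was 5.84 for Ahrr and 5.10 for Cyp1a1. With slide as a block, which leaves the male value to that array, 26 genes were called. Without the 3 marked arrays 0 genes were called by limma and 1061 had an unadjusted p below 0.05, with Ahrr and Cyp1a1 at an adjusted p of 0.0958.

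The level of Ahrr (probe at rn4 chr1:29894853-29894912) was -6.26, -5.25 and -5.69 in the controls and 0.11, 0.63 and -0.01 in the exposed males. Every exposed array lay above every control, and the groups were 5.24 log2 units apart at their nearest. The difference was 5.98 ± 0.35 (SE, n = 3 and 3, limma adjusted p = 0.000151), and it was 5.97 within the unmarked and 5.62 within the marked arrays. In females, whose arrays are separate samples, the difference was 5.86.

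The level of Cyp1a1 (rn4 chr8:61468133-61468192) was -7.08, -7.70 and -7.97 in the controls, on none of which the probe was well above background. It was -2.49, -1.19 and -1.80 in the exposed males, well above background on all 3. The difference of measured means was 5.76 ± 0.39 (SE, limma adjusted p = 0.000265). The bound of 27.1-fold sets the exposed mean against the lowest signal that counted as well above background on each control array. The difference was 5.72 within the unmarked and 5.86 within the marked arrays, and 5.47 in females.

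**Figure D1:**
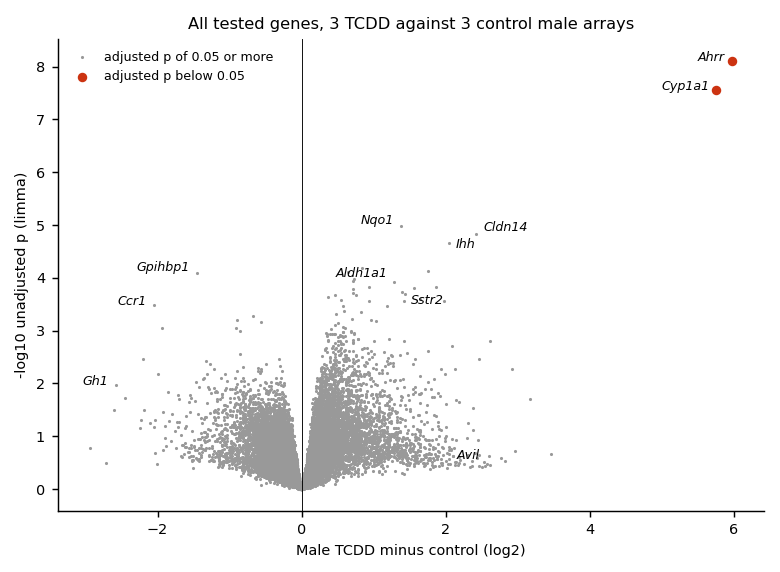
The male TCDD minus control difference on the log2 scale (x axis) is plotted against -log10 of the unadjusted limma p (y axis) for 19337 genes. Ahrr and Cyp1a1 (red) lie apart from all others, while Avil, at 2.05, has a large difference and a high p.

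Nqo1, the quinone reductase that both AhR and Nrf2 control, came next by p. Its level (rn4 chr19:37251727-37251786) was -4.07, -4.43 and -4.37 in controls and -3.03, -2.95 and -2.76 in exposed males. The groups did not overlap, and they were 1.04 apart at their nearest. The difference was 1.38 ± 0.17 (SE), a 2.59-fold higher signal with a limma adjusted p of 0.0682, short of the threshold. It was as large in both kinds of array (1.46 unmarked, 1.44 marked) and was 1.19 in females.

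Other measured targets of the receptor differed by less. Cyp1b1, a P450 that acts on oestrogens and retinoids, stood at -1.0, -1.05 and -0.94 in controls and at -0.78, -0.22 and -0.15 in exposed males. All exposed arrays lay above the controls, with TCDD 1 the nearest to them, and the difference was 0.61 (limma adjusted p = 0.502), against 1.03 in females. Ugt1a6, which conjugates phenols, differed by 0.38 and Nfe2l2, the gene of the Nrf2 factor itself, by 0.27. Aldh3a1, an aldehyde dehydrogenase of the same battery, differed by 0.43 with overlapping groups. Gsta1, a glutathione transferase, differed by -1.23, again with overlapping groups.

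Of the 20 genes listed as the AhR battery 12 were measured. Of these, 2 were called higher, and 6 had exposed arrays all above the controls, or 50% of the measured members, against 8.39% of all genes. None had exposed arrays all below the controls, against 6.02%. The median difference was 0.33, against -0.01 over all genes. Tiparp is not among the names in the files. A transcript, ENSRNOT00000015387, whose description in the files is that of the TCDD-inducible PARP enzyme, differed by 0.51 ± 0.14 (SE, limma adjusted p = 0.482), with -1.19, -1.30 and -1.15 in controls and -0.88, -0.57 and -0.64 in exposed males. The exposed arrays of this transcript also lay above all controls.

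The receptor itself gave other values than its targets. Ahr differed by -0.08 and its partner Arnt by 0.05, both with overlapping groups. Ptges3, the co-chaperone p23 of the unbound receptor, differed by 0.15 (limma adjusted p = 0.507), with 2.83, 2.93 and 2.91 in controls and 3.12, 3.04 and 2.98 in exposed males. Of the 18 measured Nrf2 antioxidant genes, 4 had exposed arrays all above the controls (22.2%, against 8.39% of all genes), among them Nqo1, Nfe2l2 and Gsr, and the list's median difference was -0.06.

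**Figure D2:**
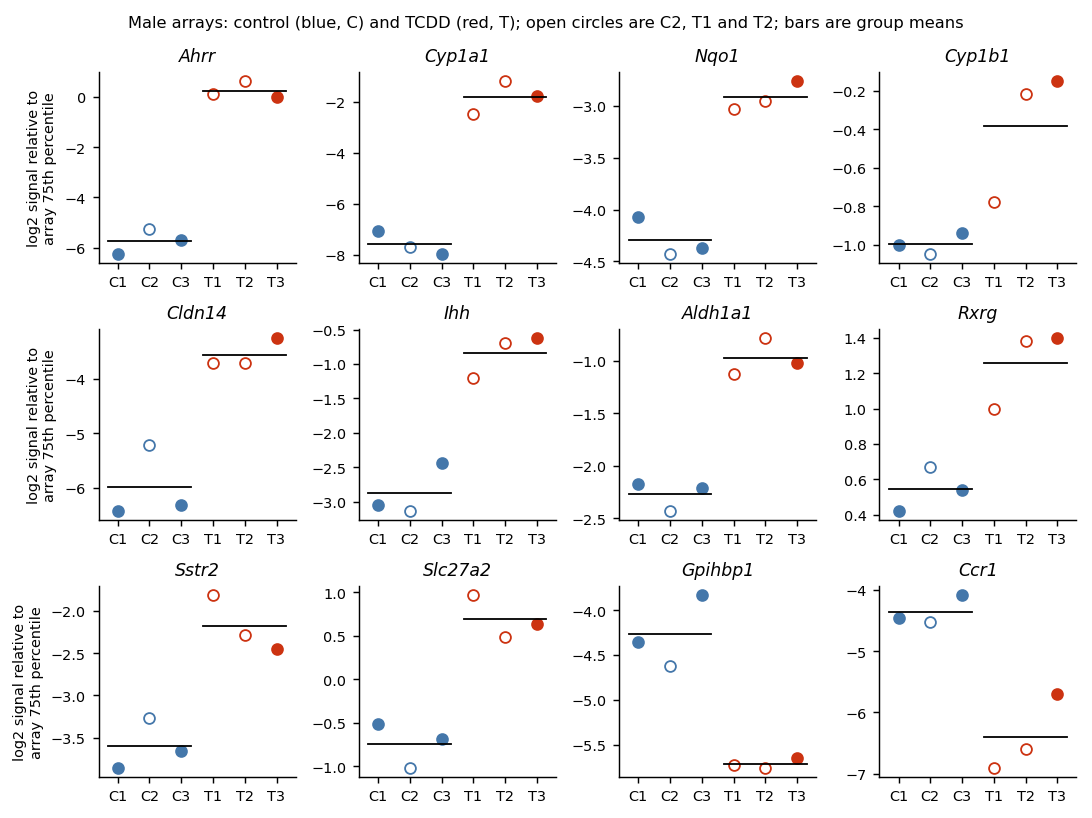
Log2 signal relative to the array's 75th percentile (y axis) on each male array (x axis) for 12 genes, with a bar at each group mean and open circles for the 3 marked arrays. The exposed arrays lie at least 5.24 units above the controls for Ahrr and 4.59 for Cyp1a1, and the groups overlap in none of the 12 panels.

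Beyond the receptor's known targets, the genes of smallest p encode junction, signalling, retinoid, lipid and contractile proteins, and none passed the adjusted threshold. Cldn14, a claudin of tight junctions, stood at -6.43, -5.22 and -6.31 in controls and at -3.72, -3.71 and -3.25 in exposed males. The lowest exposed value lay 1.5 above the highest control, which was the marked control 2. The difference was 2.42 ± 0.32 (SE, limma adjusted p = 0.0707), 3.12 within the unmarked and 1.5 within the marked arrays. Without male control 2 it was 2.81 and passed, at a limma adjusted p of 0.00579. In females it was 0.70.

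Ihh, the Indian hedgehog ligand, stood at -3.05, -3.14 and -2.44 in controls and at -1.21, -0.69 and -0.62 in exposed males. Here too the groups were apart, and both kinds of array gave the same size (2.12 unmarked, 2.20 marked). The difference was 2.04 ± 0.28 (SE, limma adjusted p = 0.0835) and 2.07 in females. A second, dimmer probe of Ihh was well above background on 1 male array, so no difference is read from it. Of the 11 measured genes of the hedgehog pathway, Ihh was the only one with non-overlapping male groups (9.09%, against 8.39% of all genes higher), and the list's median difference was -0.03.

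Among retinoid genes, Aldh1a1, which makes retinoic acid from retinal, stood at -2.17, -2.43 and -2.21 in controls and at -1.12, -0.78 and -1.02 in exposed males, a difference of 1.29 ± 0.22 (SE, limma adjusted p = 0.191). Rxrg, a retinoid X receptor of thyrotropes, stood at 0.42, 0.67 and 0.54 against 1.00, 1.38 and 1.40, a difference of 0.72 (limma adjusted p = 0.191). Neither gene's groups overlapped in males, and the female differences were 0.75 and 0.27. In all, 4 of 18 measured retinoid genes had exposed arrays above all controls (Aldh1a1, Rxrg, Rdh10 and Cyp26a1), or 22.2% against 8.39% of all genes, and the list's median was -0.09. Cyp26b1, which degrades retinoic acid, and Rbp4, the retinol carrier, differed by -1.07 and -0.94 with overlapping groups. These were mostly differences of the marked arrays, -1.15 and -1.20, against -0.45 and -0.27 in the unmarked.

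Sstr2, a somatostatin receptor that restrains growth hormone release, stood at -3.86, -3.27 and -3.66 in controls and at -1.81, -2.28 and -2.45 in exposed males. The difference was 1.42 ± 0.26 (SE, limma adjusted p = 0.200), 1.31 within the unmarked and 1.23 within the marked arrays, and 0.81 in females. Slc27a2, an acyl-CoA synthetase and fatty acid transporter, differed by 1.44 (limma adjusted p = 0.195), with -0.51, -1.02 and -0.69 against 0.97, 0.48 and 0.64. Both genes had groups that did not overlap in either sex. Degs1l2 differed by 1.76 in males and by 0.21 in females, and Gpr97, an adhesion receptor, by 1.87 and 1.44. The Gpr97 probe was not well above background on any male control and was so on 1 of the 3 exposed males, so no size is read from it.

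Probes for Myh7, Myh6 and Myh13, 3 myosin heavy chains, differed by 1.56, 1.65 and 1.98 (limma adjusted p = 0.195, 0.200 and 0.200). Myh7 stood at -2.15, -2.26 and -2.23 in controls and at -1.25, -0.44 and -0.27 in exposed males. These genes are near-identical copies in parts of their sequence, so their probes may share signal, and a second probe of Myh13 differed by -1.0. Of the 11 measured heart muscle markers Myh7 and Myh6 were the only members with exposed arrays above all controls (18.2%, against 8.39% of all genes), and the list's median was -0.22. Of the 19 measured skeletal muscle markers, 17 lay below 0 and 6 had exposed arrays below all controls (31.6%, against 6.02% of all genes). The median of that list was -0.51, and among its members Myl1, a myosin light chain, differed by -1.18 and Tnni2, a fast troponin, by -0.54 (limma adjusted p = 0.507 for both). The mean level of the muscle markers ranged from -4.03 to -3.33 in controls and from -4.28 to -3.94 in exposed males.

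Among the lower genes, Gpihbp1, the protein that holds lipoprotein lipase on capillary walls, had the smallest p. It stood at -4.36, -4.62 and -3.83 in controls and at -5.73, -5.76 and -5.65 in exposed males. The 3 exposed values lie close together and below every control. The difference was -1.45 ± 0.23 (SE, limma adjusted p = 0.177), -1.56 within the unmarked and -1.13 within the marked arrays, and -0.61 in females. Over the 16 measured endothelial markers all differences were below 0, with a median of -0.23 (0.04 unmarked, -0.18 marked), and Gpihbp1 had the largest.

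Ccr1, a chemokine receptor of myeloid cells, stood at -4.46, -4.52 and -4.08 in controls and at -6.91, -6.60 and -5.70 in exposed males, a difference of -2.05 (limma adjusted p = 0.218). It was well above background on 1 of the 3 exposed arrays. Of the 16 measured macrophage and immune markers 15 lay below 0, with a median of -0.43, which was -0.04 within the unmarked and -0.41 within the marked arrays. Rbp3, a retinoid-binding protein of photoreceptors, differed by -2.20 but was not well above background on any exposed array, a bound of at least 1.33-fold lower. Inmt, an indole methyltransferase, stood at -4.46, -4.36 and -4.26 against -5.32, -5.56 and -6.18, a difference of -1.33 (limma adjusted p = 0.482) in males and -1.43 in females. The other genes with the widest gaps downwards were Atp1b4, Or6c203b, Ccn3, Rgs18, Apobec2 and Shisa5, with differences from -1.99 to -0.85 and limma adjusted p of 0.382 to 0.536. Of these, Atp1b4 and Or6c203b were not well above background on any exposed array, which leaves bounds of at least 1.91- and 1.68-fold lower.

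Counted over all genes, 1622 had exposed males all above the controls (8.39%) and 1164 all below (6.02%). More than 1 log2 unit separated the means of 703 higher genes, of which 115 had groups that did not overlap, and of 279 lower genes, of which 111 did not overlap. Above 3 log2 units there were 4 higher genes, 2 of them with groups apart, and 0 lower genes.

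Growth hormone had the lowest difference among the hormones, although no hormone gene passed the test. Gh1 stood at 0.18, -2.45 and -0.37 in controls and at -4.39, -3.49 and -2.49 in exposed males. Every exposed array lay below every control, but control 2 and TCDD 3 were only 0.04 apart. The difference was -2.58 ± 0.83 (SE, 5.98-fold lower, limma adjusted p = 0.507), -2.40 within the unmarked arrays, -1.49 within the marked arrays, and -2.19 in females. Without male TCDD 1 it was -2.11. In whole glands, fewer cells of a type and less RNA per cell cannot be told apart.

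The other genes of the somatotrope lineage gave mixed values. Ghrhr, the receptor for growth hormone releasing hormone, stood at -4.23, -5.92 and -4.28 in controls and at -9.06, -6.29 and -5.20 in exposed males. The control 2 value lay below that of TCDD 3, so the groups overlapped, and the difference of -2.04 (limma adjusted p = 0.507) was -0.94 without male TCDD 1. On male TCDD 1 the Ghrhr probe was not well above background, so the depth of its value there is not measured. Pou1f1, the factor that specifies somatotropes, lactotropes and thyrotropes, differed by -0.38, and by 0.01 without male TCDD 1. Prl, prolactin, differed by 0.01 with overlapping groups.

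For thyrotropin and the gonadotropins the lowest array was male TCDD 1. Tshb stood at 4.66, 4.83 and 4.92 in controls and at 3.25, 4.23 and 4.72 in exposed males, so TCDD 3 lay among the controls. Its difference was -0.74 ± 0.29 (SE, limma adjusted p = 0.507), -0.07 within the unmarked and -1.09 within the marked arrays, and -0.33 without male TCDD 1. Within the slide of the controls, so for TCDD 1 alone, it was -1.55 (limma adjusted p = 0.0298). Fshb stood at -5.59, -4.48 and -4.64 against -6.97, -6.17 and -5.62, and on male TCDD 1 its probe was not well above background. The Fshb groups were 0.03 apart, and the difference of -1.35 (limma adjusted p = 0.507) became -0.50 within the unmarked arrays. Lhb differed by -0.73 and Cga, the alpha subunit that thyrotropin and the gonadotropins share, by -0.55. Within the unmarked arrays these were -0.01 and 0.08. Gnrhr, the receptor through which the hypothalamus drives gonadotropes, differed by -0.66 over all arrays, by 0.32 within the unmarked and by -1.19 within the marked arrays. Pomc, the precursor of ACTH, differed by -0.33, and by 0.07 and -0.52 within these.

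**Figure D3:**
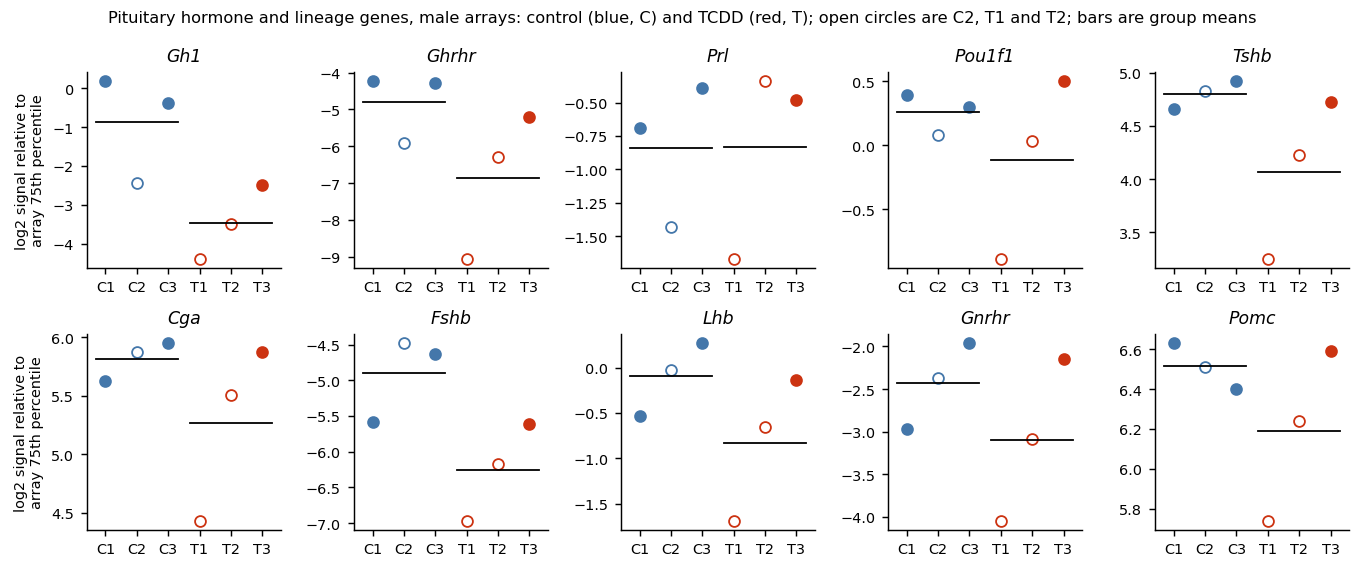
Log2 signal relative to the array's 75th percentile (y axis) on each male array (x axis) for 10 hormone and lineage genes, with a bar at each group mean and open circles for the marked arrays. Male TCDD 1 is the lowest array in every panel, and male TCDD 3 lies within the range of the controls, or above it, in all panels but those of Gh1 and Fshb.

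The lists follow the single genes. Of 7 hormone genes 6 lay below 0 with a median of -0.73 (-0.01 unmarked, -1.09 marked, -0.46 in females), and 2, Gh1 and Fshb, had exposed arrays below all controls (28.6%, against 6.02% of all genes). Of 19 gonadotrope genes 16 lay below 0, with a median of -0.24 (0.15 unmarked, -0.37 marked). The 14 genes of somatotropes, lactotropes and thyrotropes were divided, 7 above and 7 below 0. The mean level of the hormone genes was 1.47, 1.26 and 1.73 in controls and -0.19, 0.76 and 1.21 in exposed males, so that all exposed arrays were below the controls and male TCDD 1 was the lowest.

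Beside these values stand those of neural tissue. The mean of 24 measured ganglion markers was -3.69, -0.59 and -4.08 in controls and 0.71, 0.09 and -3.84 in exposed males. All 24 were well above background on the marked arrays, and 19 to 21 on the unmarked, where Pou4f1, a defining factor of sensory neurons, read -8.69, -8.31 and -8.32. The list's median difference was 1.81 over all arrays, -0.05 within the unmarked and 1.04 within the marked arrays. Of its members 0 had groups apart (0%, against 8.39% of all genes higher and 6.02% lower). These values are not independent of the marking, which rests on Avil, a member of the list. The summed level of the list spanned 2.08 to 5.49 in controls and 2.14 to 6.84 in exposed males on the log2 scale. Of 13 peripheral glia markers 13 lay above 0, with a median of 1.11 (-0.06 unmarked, 1.23 marked). Exposed arrays lay above all controls for 3 of them (23.1%, against 8.39% of all genes). Sox10, a factor of neural crest glia, read -1.62, -0.42 and -1.74 against 1.08, 0.53 and -1.95. Prx, another member, was lowest on the marked control 2, with -4.72, -4.77 and -4.42 against -2.99, -3.40 and -4.20. The part of this tissue in the lower hormone values was not tested. With the mean ganglion marker level as a covariate, 4 genes were called, namely Ahrr, Cyp1a1, Nqo1 (limma adjusted p = 0.0345) and Ihh (0.036).

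**Figure D4:**
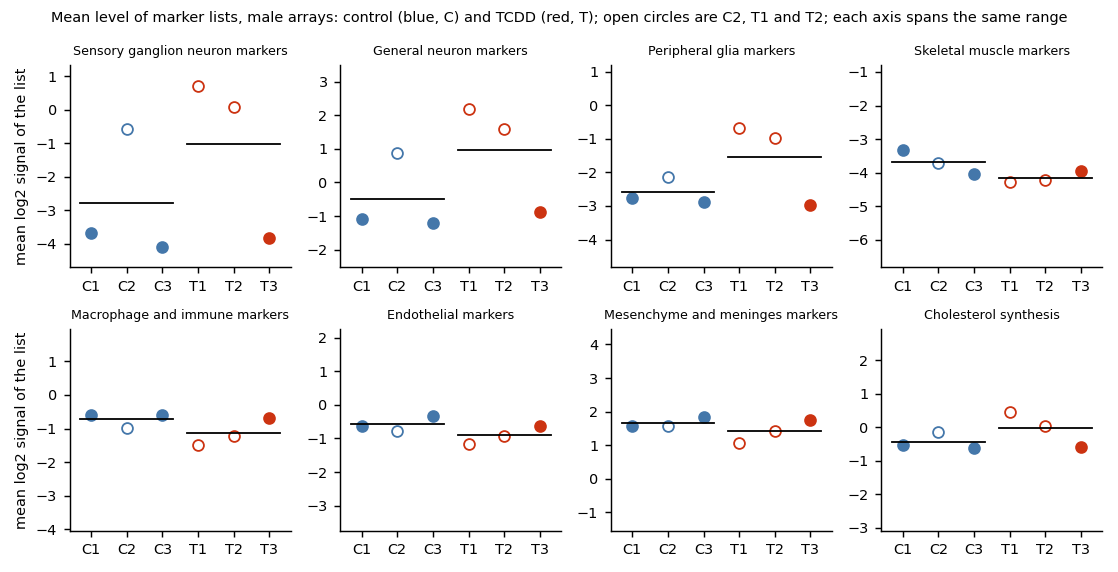
Mean log2 signal of 8 gene lists (y axis, each spanning the same range) on each male array (x axis), with a bar at each group mean and open circles for the marked arrays. The neuron and cholesterol lists are high on control 2, TCDD 1 and TCDD 2. The glia list is high on TCDD 1 and TCDD 2 (-0.67 and -0.98), while control 2, at -2.13, lies nearer the unmarked arrays (-2.96 to -2.75). TCDD 3 lies near controls 1 and 3 in each of these lists.

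Cholesterol synthesis genes were high on the marked arrays as well. Of 25 measured members, 23 lay above 0 with a median of 0.39, which was -0.05 within the unmarked and 0.43 within the marked arrays. Hmgcs1, the enzyme that makes HMG-CoA, read 2.55, 3.56 and 2.33 in controls and 4.46, 3.85 and 2.29 in exposed males. TCDD 3 was thus the lowest of the 6 arrays and TCDD 1 the highest. Of this list 1 gene, Ebp, had exposed arrays above all controls (4%, against 8.39% of all genes). The part of the neural tissue in these values was not tested.

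Of the 15 measured forebrain and hypothalamic markers, 2 had exposed arrays above all controls (13.3%, against 8.39% of all genes), and the list's median was 0.03. One of them, Bcl11b, a zinc finger factor of cortical neurons, stood at -3.26, -2.56 and -3.21 in controls and at -0.99, -1.67 and -2.27 in exposed males. The difference was 1.36 (limma adjusted p = 0.502), 0.96 within the unmarked and 1.23 within the marked arrays. Avp, the vasopressin gene, read -1.85 on male TCDD 1 and between -6.23 and -5.61 on the other 5 arrays.

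Whether the TCDD difference itself depended on sex was tested with an interaction term. No gene passed at an adjusted p below 0.05 by limma (0% of 19337), and 862 had an unadjusted p below 0.05 (4.46%). With slide as a block 6 passed. In females 1341 genes had groups that did not overlap (6.93%). Of these, 278 had exposed arrays all above the controls (1.44%) and 1063 all below (5.5%). Of the genes higher in this sense, 58 were shared (0.3% of all genes), which is 20.9% of the female and 3.58% of the male genes. Of the lower genes 72 were shared (0.372% of all genes), or 6.77% of the female and 6.19% of the male genes. A further 74 of the 19337 genes were higher in males and lower in females, and 0 were lower in males and higher in females. Of all genes, 8.39% were higher and 6.02% lower in males in this sense, and 1.44% and 5.5% in females. No set of opposite genes is read from these counts. Among the shared higher genes were Ahrr, Cyp1a1, Ihh and Cldn14, and among the shared lower ones Rbp3, Inmt, Gpihbp1, Dcps and Npat. Dcps, the scavenger decapping enzyme, stood at -0.04, -0.09 and -0.37 in control males and at -0.74, -1.07 and -0.76 in exposed males, a difference of -0.68 (limma adjusted p = 0.295) against -0.58 in females.

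**Figure D5:**
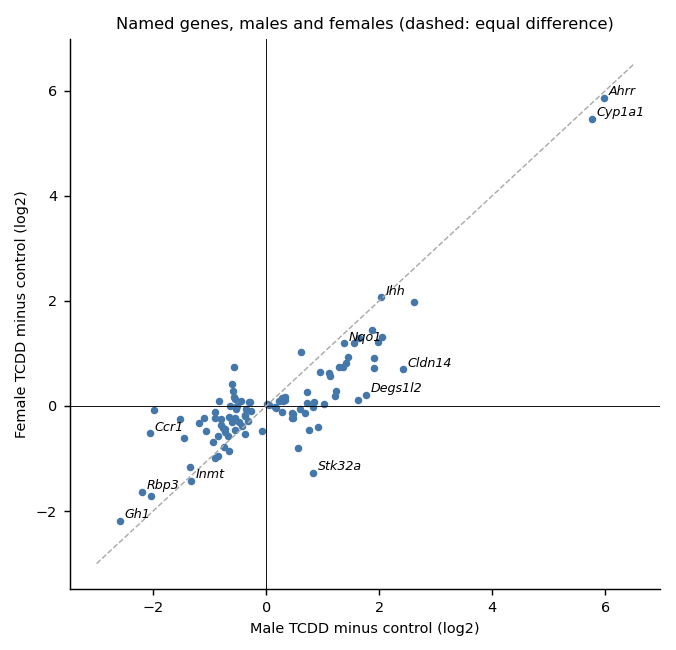
The TCDD minus control difference in females (y axis, log2) against that in males (x axis, log2) for the 102 named genes, some of which were chosen for being apart in both sexes, with a dashed line where both are equal. Ahrr and Cyp1a1 lie above 5 on both axes, and Stk32a is higher in exposed males by 0.83 and lower in exposed females by 1.27. The Stk32a probe was well above background on 2 of the 6 male and 3 of the 6 female arrays.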

How the data were processed

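The authors' deposited scanner files give linear intensity per spot, written by Agilent Feature Extraction 10.7.1.1 per the file headers (9.5.1.1 per the submitters' processing notes). RNA was amplified and Cy3-labelled, per the labels' protocols. The background-corrected processed intensity of the 42877 spots per array that are not controls was used without outlier spots. Its log2 was taken, the array's 75th percentile subtracted, and spots of a probe averaged. Probes needed a flag of well above background on 3 or more of 12 arrays and 10 or more values (22431 of 30367 passed), and the brightest such probe stood for its gene. This scaling assumes a like overall signal on each array. Names came from the RefSeq table by accession (18006 probes), by an accession the files list (388) or by symbol (3001), and 8972 probes kept the file's name. Positions are on rn4; exon or UTR was not analysed here. The deposited value table holds intensity values that had the same median, 83.5, on every array and the ranks of the scanner values; it served as an alternative.

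Group means were fitted to all 12 arrays with limma 3.58.1 (R 4.3.3), variances being moderated along an intensity trend, and p-values of 19337 genes were adjusted by Benjamini-Hochberg and called below 0.05. The fit was tested on simulated data with independent noise on each array. These data hold no marked arrays and no slides, so they cannot show how the fit behaves under such structure. The design states no pairing. Slides were read from the file headers. The members, the 38 gene lists and the tests were chosen with earlier results of these data known. Named genes are those called; the 12 of smallest p with a symbol; the 10 higher and 10 lower of widest gap between groups; the 5 each way of widest gap that are apart in both sexes; the 5 of smallest interaction p; a set that is always named; and up to 4 members per list with an unadjusted p below 0.05, or otherwise 2. Other list members given as examples were chosen after their values were seen. The alternatives were other backgrounds, scalings, filters, blocks, weights, a ganglion covariate and leaving arrays out. A bound ("at least") uses each dim array's lowest signal among probes well above background. Some named genes are not reported here.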

Additional observations from a re-analysis of the deposited data

Results flagged for a closer look

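The TCDD difference had opposite signs in the sexes, with groups that did not overlap in either, for 3 of the genes named for the smallest interaction p. A choice by that p favours opposite signs. Over all genes, 74 of 19337 were likewise apart, higher in males and lower in females. The gap between the female groups was -0.06 for Cetn2, -0.02 for Park7-ps2 and -0.55 for Stk32a (negative where exposed arrays are lower). Cetn2, a centrin of centrioles, differed by 0.48 in males and by -0.23 in females. Park7-ps2, named in the files as a Park7 pseudogene and open to signal from Park7 itself, differed by 0.46 and by -0.23. Both genes also differed between slides. On the slide of the male controls and TCDD 1, Cetn2 read -2.02 to -1.68 and Park7-ps2 0.76 to 1.13. On that of male TCDD 2 and 3 and female controls 1 and 2, they read -1.43 to -1.27 and 1.37 to 1.60. On that of the other females they read -1.71 to -1.58 and 1.22 to 1.35. The part of the slide in these differences was not tested. Stk32a, a kinase, differed by 0.83 in males and by -1.27 in females. Its probe was not well above background on any male control and was so on 2 of the 3 exposed males, a bound of at least 1.49-fold. It was so on 3 of the 6 female arrays. Exposed females 2 and 3 read -7.04 and -7.41, below the lowest signal well above background there (-6.58 and -6.95). The depth of the female difference and of the interaction is therefore not measured. The interaction was 0.71, 0.69 and 2.11, with a limma adjusted p of 0.883 for each.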

How the results depend on the processing

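Each count below is of genes at a limma adjusted p below 0.05. For males it was 2, and it was 1 with the males alone, with normexp background correction, and over the probes well above background on all 12 arrays. It was 4 with no intensity trend, 4 with the ganglion level as a covariate, 26 with slide as a fixed block, 276 within slide 1, 5292 with array quality weights and 0 without male control 2, male TCDD 1 and male TCDD 2. Ahrr was among the calls in each of these but the last. Array weights gave male TCDD 2 a weight of 9.07, where the next highest was 2.39, and the fits within slide 1 rest on 1 exposed array that is assumed to vary like the controls. Slide as a random block, quantile normalization, median centring, the deposited value table, no filter, outlier spots kept, robust moderation and every kept probe by itself each gave 2. Leaving out 1 male array at a time gave 2 to 3 calls, with 752 to 5333 genes at an unadjusted p below 0.05 (5333 without male TCDD 3). For the difference between the sexes the count was 0, and 6 with slide as a fixed block; leaving out 1 array gave 0 to 0.

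Whether the replicate numbers of the titles pair the samples was left undecided. Deviations of same-numbered control and exposed arrays correlated at -0.22, 0.35 and 0.44, and those of different-numbered arrays at -0.63 to 0.51. These values cannot decide it, because arrays of like marking correlated positively and the others negatively. With the number as a replicate block 2 genes were called in males, Ahrr and Cyp1a1, and 0 for the difference between the sexes.

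Among the 102 named genes, 6 reversed sign without the 3 marked arrays: Cga (0.08), Gnrhr (0.32), Lhx4 (0.07), Nr4a1 (-0.04), Pomc (0.07) and Pou1f1 (0.16). Pou1f1 also reversed without male TCDD replicate 1 (0.01), and ranged from -0.69 to 0.01 as 1 array at a time was left out. Cyp1a1 missed the threshold with the males alone (limma adjusted p = 0.0511) and with normexp (0.0674). It was not tested over the probes well above background on all 12 arrays, because its probe was not so on any male control. Scalings moved the median difference of all genes from -0.01 to between -0.06 and -0.05, normexp to -0.03, and the slide block to -0.10. The number of arrays limits the precision, and dim probes have only bounds. The cause of these changes was not tested.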

Other observations

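Some genes were high on male TCDD 1 alone. They were chosen after their values were seen, among all genes with a symbol, from those for which that array lies farthest above or below the other male arrays. Slpi, a secreted protease inhibitor of epithelia, read -1.78 there and between -8.40 and -7.18 on the others. Neurog1, a factor of sensory neuron precursors, read -1.64 against -7.82 to -6.01. The homeobox genes Emx2 and Dlx5, of the forebrain and the nasal and facial primordia, read 0.60 against -4.12 to -2.56 and 0.66 against -3.29 to -2.40. Tfap2e, a factor of vomeronasal neurons, read -2.58 against -7.54 to -6.66, and Foxn4, of retinal and spinal precursors, read -2.02 against -6.44 to -5.16. Among the genes lowest there, Hoxa7 read -8.29 against -4.27 to -3.67 and Spag11a -9.07 against -5.34 to -4.48. Il5 read -8.84 against -5.28 to -4.25 and Or10al7 -8.98 against -5.44 to -4.57. Ghrhr read -9.06 against -6.29 to -4.23, which is 2.77 from the nearest array, where Hoxa7 is 4.02 from it. The readings of these low genes on TCDD 1 all lie below -6.77. That is the lowest signal well above background on that array, so their depth is not measured. None of these genes had a limma adjusted p below 0.507 in the comparison of all males.

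The cell cycle and clock lists gave medians near that of all genes (-0.01). Of 29 cell cycle and replication genes 22 lay below 0, with a median of -0.13 (0.07 within the unmarked arrays). Of them 0 had groups apart (0%, against 8.39% of all genes higher and 6.02% lower). Of 22 clock genes 15 lay below 0, with a median of -0.14. Exposed arrays lay below all controls for 2 of them (9.09%, against 6.02% of all genes) and above for 0. Atf3, a stress-induced factor, differed by 0.96, by 0.12 within the unmarked and 1.57 within the marked arrays. Dapl1, an epithelial gene, was lower in both sexes, at -0.85 and -0.96, with male levels of -1.95, -2.14 and -1.95 in controls and -3.22, -2.96 and -2.40 in exposed fetuses (limma adjusted p = 0.386). Of the 12 measured stratified epithelium markers, 7 lay above and 5 below 0, with a median of 0.18. Only 1, Dapl1, had exposed arrays below all controls (8.33%, against 6.02% of all genes).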
